A study of Mus musculus with 6 samples.

Results

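The cathepsins described here are 10 genes for lysosomal proteases, Ctsa, Ctsb, Ctsc, Ctsd, Ctsf, Ctsh, Ctsk, Ctsl, Ctss and Ctsz, taken by symbol from the transcript-level tables and joined by gene identifier to the count table of 45777 genes. All 10 were among the 16188 genes that passed the filter on low counts and were tested. RNA-Seq was carried out on the tibialis anterior (TA) muscle, a fast muscle of the lower hind limb, of male C57BL/6J mice labelled as 24 months of age, with 1 library per mouse. There were 3 mice given vehicle, which the study's methods describe as DMSO with Tween 80, and 3 mice given BML-260, a small molecule reported to inhibit the phosphatase DUSP22, at 5 mg/kg by intraperitoneal injection for 1 month. The study's text names other ages for its geriatric mice as well, the 6 libraries include no young mice, and whole muscle was used, so the RNA of fibers, blood cells and connective tissue was mixed. In such tissue, fewer cells of a type cannot be told apart from less RNA per cell.

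Cathepsins are made as inactive precursors, carried to the lysosome by mannose 6-phosphate and other sorting receptors, and activated there at acid pH. Most are papain-like cysteine proteases (Ctsb, Ctsc, Ctsf, Ctsh, Ctsk, Ctsl, Ctss and Ctsz), whereas Ctsd is an aspartic protease and Ctsa a serine carboxypeptidase. In skeletal muscle they degrade what autophagy brings to the lysosome, and Ctsl is known as an atrogene, a gene induced in wasting muscle together with the ubiquitin ligases Trim63 (MuRF-1) and Fbxo32 (atrogin-1). Ctss is abundant in macrophages and other antigen-presenting cells, where it cuts the invariant chain from MHC class II, and Ctsk is known for degrading bone collagen in osteoclasts. The comparison of BML-260 with vehicle was therefore read for a muscle atrogene and for myeloid cathepsins side by side.

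The libraries held between 39522890 and 56998875 counts, and vehicle replicate 3 stood apart from the other 5 libraries. The summed level of 16 macrophage markers was 656 TPM (a transcript abundance scaled for transcript length and for the library total) in that library, against 165 and 160 TPM in the other vehicle libraries and 109, 94.5 and 120 TPM in the BML-260 libraries. All 16 of these markers were highest in vehicle replicate 3, and none was at 0. Much of the sum was Lyz2, with 74.0, 78.8 and 354 TPM in vehicle and 52.4, 45.0 and 58.9 TPM in BML-260. Of 8 neutrophil markers, 5 had TPM values, with sums of 165, 24.0 and 806 TPM in vehicle and 7.53, 6.95 and 12.2 TPM in BML-260. Vehicle replicate 3 was also highest for the slow fiber list (608 TPM against 23.6 to 81.4 TPM elsewhere), the adipocyte list (189 against 8.41 to 11.6 TPM), the Schwann cell list (98.5 against 21.0 to 31.5 TPM) and the erythroid list (8752 against 1619 to 2162 TPM). Fast fiber markers summed to between 99390 and 135000 TPM in the 6 libraries, so that the labelled tissue was seen in each. No marker of T and B lymphocytes passed the filter. Counts in these lists moved without that library: of 6 slow fiber genes 1 was lower and 4 were higher with BML-260 at the threshold given below (2 lower and 0 higher with all libraries), of 5 Schwann cell genes 2 were higher (0 with all), of 4 adipocyte genes 0 were lower (1 with all), and of 5 erythroid genes 2 were lower (3 with all). Of all tested genes, 4.86% were lower and 0.896% higher with all libraries, and 2.92% lower and 1.06% higher without vehicle replicate 3. Cathepsin results are given with and without vehicle replicate 3 where that library decided them. The part of these cell type markers in the cathepsin values was not tested, and the ratios given further on do not measure it.

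Ctsd was the most abundant cathepsin by far, followed by Ctsb and Ctsl. Averaged over the 6 libraries, the level of Ctsd was 541 TPM, that of Ctsb 82.4 TPM and that of Ctsl 62.0 TPM. Below these came Ctsz with 32.2 TPM, Ctsa with 28.5 TPM, Ctss with 18.3 TPM, Ctsf with 18.2 TPM, Ctsc with 12.6 TPM, Ctsh with 6.81 TPM and Ctsk with 5.99 TPM. Ctsd alone made up 66.5% ± 3.12 (SD, n = 3) of the summed cathepsin TPM in vehicle and 68.4% ± 0.996 (SD, n = 3) in BML-260. Neighbours in this order were separated by non-overlapping ranges for 2 pairs, Ctsd over Ctsb and Ctsf over Ctsc. The order of Ctsb over Ctsl held in 5 of 6 libraries, since vehicle replicate 3 had 160 TPM of Ctsl and 123 TPM of Ctsb. Ctss exceeded Ctsf in 1 of 6 libraries only, again vehicle replicate 3, so that its place above Ctsf rested on that mouse.

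**Figure D1:**
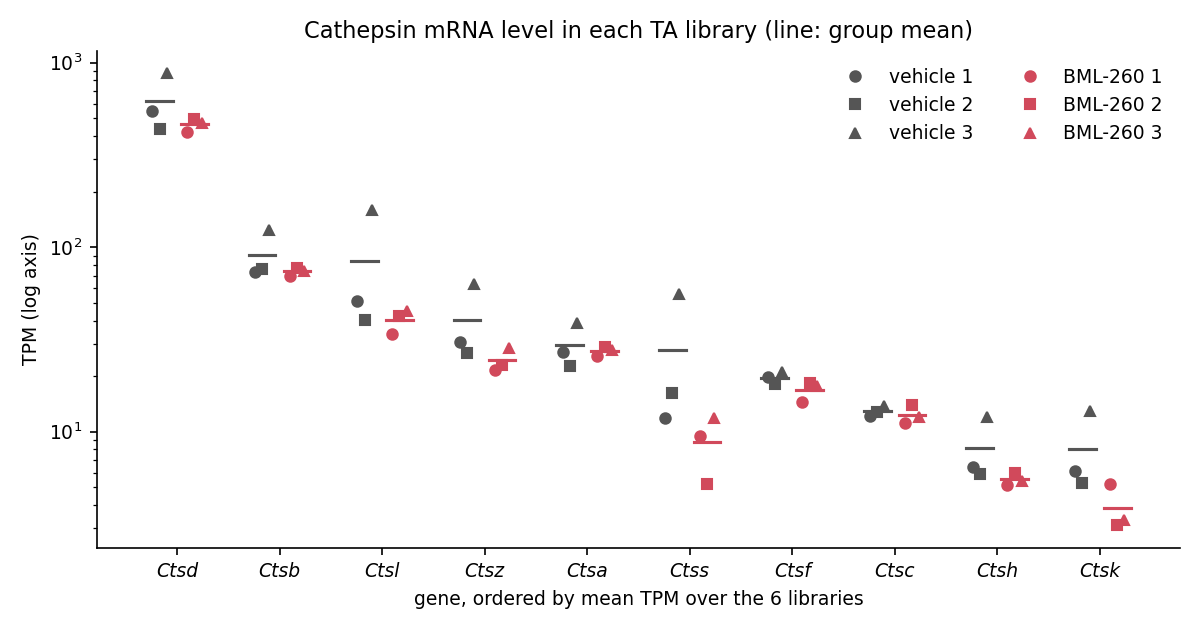
TPM of each cathepsin (log axis) in the 3 vehicle and 3 BML-260 libraries, with a line at each group mean. Ctsd lies above all others, and the vehicle replicate 3 triangle is the highest point for most genes, most clearly for Ctsl and Ctss.

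Summed over the family, the level was 787, 659 and 1375 TPM in vehicle replicates 1 to 3 and 619, 714 and 696 TPM in BML-260. Only vehicle replicate 3 lay far from the rest. The BML-260 sum was lower by a log2 ratio of -0.40, which an exact two-sided permutation test over the 20 assignments of the libraries did not separate (p = 0.3, where 0.1 is the smallest p this design can give). Without vehicle replicate 3 the log2 ratio was -0.09. On the TMM-scaled CPM scale it was smaller, -0.24, but all BML-260 sums were below all vehicle sums (exact two-sided permutation test, p = 0.1). BML-260 replicate 2 and vehicle replicate 2 nearly met there. Vehicle replicate 3 was again the highest, and its omission was not repeated on this scale.

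With BML-260, 3 of the 10 cathepsins were lower and 0 were higher at the threshold used here, a change of 1.3-fold or more and p below 0.05 before adjustment. The lower ones were Ctss, Ctsk and Ctsz. Of all tested genes, 4.86% were lower and 0.896% higher at this threshold. No cathepsin had an adjusted p under 0.05 in edgeR's quasi-likelihood test, nor did any gene (0.0% of those tested, with 966 genes at an unadjusted p under 0.05), whereas DESeq2's Wald test gave 95 genes and no cathepsin among them. The log2 fold change, BML-260 over vehicle, was negative for 8 cathepsins and positive for 2, with a median of -0.29 beside -0.00 over all tested genes. Without vehicle replicate 3 the median was -0.19 and Ctss alone stayed past the threshold, where 2.92% of all tested genes were lower and 1.06% higher. Without BML-260 replicate 2 no cathepsin passed.

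**Figure D2:**
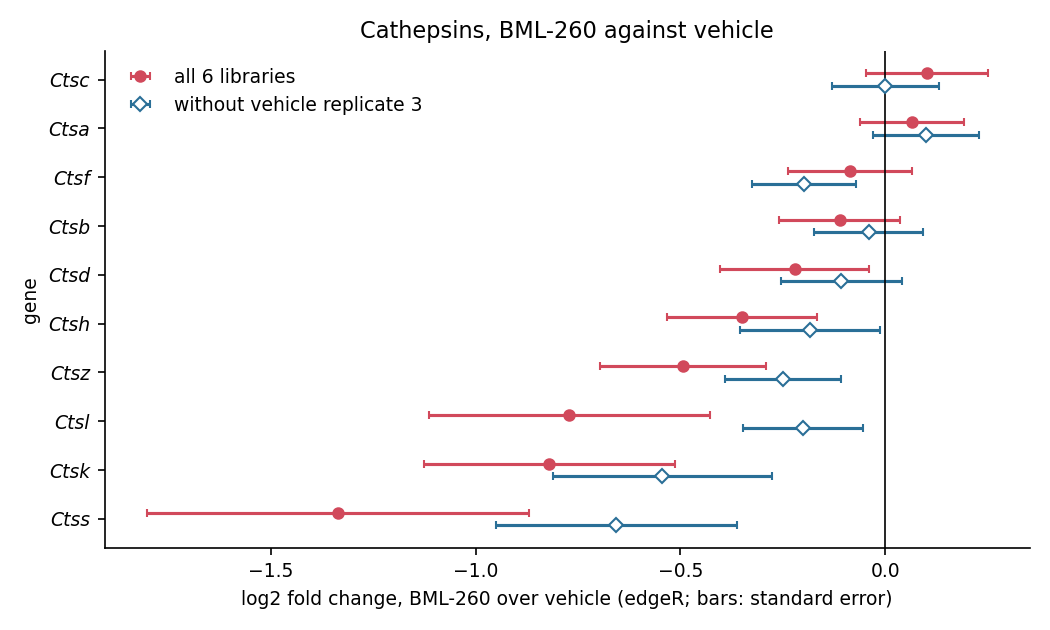
Log2 fold change of each cathepsin, BML-260 over vehicle, with its standard error, from all 6 libraries (filled circles) and without vehicle replicate 3 (open diamonds). Ctss, Ctsk, Ctsl and Ctsz lie farthest to the left, and the estimates for Ctsl and Ctss move most when that library is left out.

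Ctss (gene identifier 13040), the invariant chain protease of antigen-presenting cells, lies on chromosome 3 from 95526786 to 95556405 (GRCm38, the build named mm10 in the submitters' notes). Its normalized level in CPM (counts relative to the library total, scaled between libraries by TMM) was 9.73, 13.8 and 32.7 in vehicle replicates 1 to 3 and 8.60, 4.18 and 9.55 in BML-260 replicates 1 to 3. All BML-260 libraries were below all vehicle libraries, although BML-260 replicate 3 and vehicle replicate 1 nearly met. The groups were separated in this way for 3 cathepsins, Ctss, Ctsz and Ctsh, and for 6.91% of all tested genes. The log2 fold change of Ctss was -1.34 (SE 0.47, unadjusted p = 0.0201, adjusted p = 0.782 by edgeR's quasi-likelihood test), the largest in the family. It was -0.66 without vehicle replicate 3 (unadjusted p = 0.0475) and -1.05 without BML-260 replicate 2, the library with the lowest value, where it no longer passed (unadjusted p = 0.0735). The span of Ctss overlaps that of the pseudogene Hmgb1-ps5 by 628 bases.

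Ctsk (gene identifier 13038), the collagen-degrading cathepsin, is the neighbour of Ctss on chromosome 3, from 95499210 to 95509387, with 17398 bases between them. Its level was 5.98, 5.50 and 9.28 CPM in vehicle and 5.58, 2.92 and 3.25 CPM in BML-260. The groups overlapped, since BML-260 replicate 1 lay between the lower 2 vehicle libraries, and the other BML-260 libraries were lowest. Ctsk had a log2 fold change of -0.82 (SE 0.31, unadjusted p = 0.0272, adjusted p = 0.788 by edgeR) and -0.54 without vehicle replicate 3 (unadjusted p = 0.0674). It did not pass without BML-260 replicate 2 (-0.65, unadjusted p = 0.0969) or BML-260 replicate 3 (-0.70, unadjusted p = 0.0945) either. Ctsk rested on the fewest counts of the family, 123 to 582 per library.

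Ctsz (gene identifier 64138), a carboxypeptidase also called cathepsin X, lies on chromosome 2 from 174427494 to 174439039. Its level was 26.7, 24.6 and 39.6 CPM in vehicle and 20.8, 19.4 and 24.5 CPM in BML-260. The highest BML-260 library was just under the lowest vehicle library. For Ctsz the log2 fold change was -0.49 (SE 0.20, unadjusted p = 0.0403, adjusted p = 0.788 by edgeR), and -0.25 without vehicle replicate 3 (unadjusted p = 0.107). Nor did Ctsz pass without BML-260 replicate 1 (-0.46, unadjusted p = 0.108) or BML-260 replicate 2 (-0.42, unadjusted p = 0.135). Its span overlaps that of Nelfcd by 12 bases.

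The 250 bases before the RefSeq start (GRCm38.p6) are shown for these 3 genes because they were the cathepsins past the threshold. In capitals are the GC box core GGGCGG, the TATA box core TATAAA and, in Ctss, the letters GAAANNGAA of an interferon-stimulated response element, a motif that was added after the Ctss sequence had been seen. Matches on either strand count, so the TATA match in Ctss reads TTTATA on the strand printed. Ctss is shown from chr3:95526536-95526785 (plus strand), Ctsk from chr3:95498960-95499209 (plus strand) and Ctsz from chr2:174439040-174439289 (minus strand).
Ctss: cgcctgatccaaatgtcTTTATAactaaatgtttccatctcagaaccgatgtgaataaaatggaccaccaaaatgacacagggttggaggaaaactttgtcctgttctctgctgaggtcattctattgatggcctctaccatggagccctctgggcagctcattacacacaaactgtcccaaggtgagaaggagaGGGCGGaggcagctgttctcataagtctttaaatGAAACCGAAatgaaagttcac
Ctsk: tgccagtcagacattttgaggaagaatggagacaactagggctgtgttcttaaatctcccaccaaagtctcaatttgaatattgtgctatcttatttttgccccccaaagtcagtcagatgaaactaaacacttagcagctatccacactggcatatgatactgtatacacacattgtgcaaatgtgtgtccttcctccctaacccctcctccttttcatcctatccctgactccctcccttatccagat
Ctsz: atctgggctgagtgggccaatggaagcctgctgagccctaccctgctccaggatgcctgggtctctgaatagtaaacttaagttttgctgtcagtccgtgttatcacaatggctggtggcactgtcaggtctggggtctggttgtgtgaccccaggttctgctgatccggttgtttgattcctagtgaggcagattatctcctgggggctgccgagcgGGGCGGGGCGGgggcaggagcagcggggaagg
Ctss held GGGCGG at 55 bases before the start, GAAANNGAA at 21 bases and TATAAA at 233 bases before it. Ctsz held GGGCGG at 32 and 27 bases before the start, overlapping by the shared letters, and Ctsk held none of the motifs searched. GGGCGG was also in windows of Ctsc, Ctsd and Ctsf, which did not pass the threshold. Among all 32851 windows of this length, 32.7% held GGGCGG, 12.4% TATAAA and 7.13% GAAANNGAA, so these matches are a description and not evidence of binding.

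A window was given for 8 of the 10 cathepsins, Ctsb and Ctsh being the exceptions, and the other motifs searched were found in members that did not pass the threshold. The E-box CACGTG, the core of the motif read by the lysosomal regulator TFEB, was in the windows of Ctsa, Ctsd, Ctsf and Ctsl and in 6.02% of all windows. Its longer form TCACGTGA was in those of Ctsa and Ctsd and in 0.785% of all. The windows of these 4 genes with CACGTG also ran into annotated exons of the same gene (GENCODE M21), by 35 bases in Ctsf to 211 bases in Ctsd. They are thus not purely sequence upstream of transcription. For Ctsl (chr13:64370521-64370770) and for the Ctsa window with the motif (chr2:164833523-164833772), the whole window lay inside the gene span given here. The other Ctsa window, directly before its span, held no CACGTG. The FOXO motif TGTTTAC was in no cathepsin window and in 3.17% of all windows. For Ctsl this covers no sequence before its span, which was not searched. The ETS motif GAGGAAGT was in the window of Ctsc and in 2.44% of all. Part of that Ctsc window (chr7:88277835-88278084) also lay inside the gene span given here, though with 0 bases in annotated exons.

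Ctsl (gene identifier 13039), the muscle atrogene of the family, lies on chromosome 13 from 64361890 to 64370772. Its level was 109, 90.7 and 244 CPM in vehicle and 79.0, 87.3 and 93.8 CPM in BML-260. The groups overlapped, and vehicle replicate 3 lay far above all other libraries. For Ctsl the log2 fold change was -0.77 (SE 0.34, unadjusted p = 0.0534, adjusted p = 0.788 by edgeR's quasi-likelihood test) and did not pass the threshold. It was -0.20 without vehicle replicate 3 (unadjusted p = 0.196). Ctsl passed the threshold with DESeq2 (unadjusted p = 0.022), without the filter on low counts, and when vehicle replicate 1 or 2 was left out.

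Ctsd (gene identifier 13033), the major aspartic protease of the lysosome, lies on chromosome 7 from 142375910 to 142387827. Its level was 642, 535 and 730.0 CPM in vehicle and 540.1, 559 and 536 CPM in BML-260. The BML-260 libraries were close together (545 ± 12.2 CPM, SD, n = 3) within the wider range of the vehicle libraries (636 ± 97.7 CPM, SD, n = 3). The log2 fold change was -0.22 (SE 0.18) and did not pass (unadjusted p = 0.257). It was -0.11 without vehicle replicate 3.

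Ctsb (gene identifier 13030), which acts as an endopeptidase and as a dipeptidyl carboxypeptidase, lies on chromosome 14 from 63122462 to 63145923. Its level was 211, 232 and 253 CPM in vehicle and 219.9, 214 and 210.1 CPM in BML-260, with overlapping groups. The log2 fold change was -0.11 (SE 0.15, unadjusted p = 0.474), and -0.04 without vehicle replicate 3. Its annotated span overlaps that of Fdft1 by 774 bases, and since the strand setting of the counting is not given in the sources used here, reads there could not be assigned with certainty.

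Ctsh (gene identifier 13036), an aminopeptidase, lies on chromosome 9 from 90054267 to 90076095. Its level was 6.38, 6.14 and 8.47 CPM in vehicle and 5.58, 5.72 and 5.20 CPM in BML-260. The groups did not overlap, but the log2 fold change of -0.35 (SE 0.18) did not pass the threshold (unadjusted p = 0.0915). Without vehicle replicate 3 it was -0.18.

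Ctsf (gene identifier 56464), a cysteine protease that can also process the invariant chain in macrophages, lies on chromosome 19 from 4855165 to 4860918. Its level was 23.4, 22.6 and 17.8 CPM in vehicle and 18.7, 20.9 and 20.3 CPM in BML-260. In CPM vehicle replicate 3 was the lowest library, whereas in TPM it was the highest (21.0 against 14.5 to 19.7 TPM). The log2 fold change was -0.09 (SE 0.15, unadjusted p = 0.577), and -0.20 without vehicle replicate 3.

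Ctsc (gene identifier 13032), the dipeptidyl peptidase that activates granule proteases of neutrophils, mast cells and cytotoxic lymphocytes, lies on chromosome 7 from 88278024 to 88315861. Its level was 39.9, 43.5 and 33.0 CPM in vehicle and 40.9, 44.5 and 39.3 CPM in BML-260. In CPM vehicle replicate 3 was again the lowest library, in contrast to Ctss, and the log2 fold change was 0.10 (SE 0.15, unadjusted p = 0.517), and 0.00 without vehicle replicate 3. On the log2(TPM + 1) scale its sign changed to -0.06, where the median of all genes was itself -0.09.

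Ctsa (gene identifier 19025), the serine carboxypeptidase that protects the sialidase Neu1, lies on chromosome 2 from 164832872 to 164841032. Its level was 41.2, 36.5 and 41.5 CPM in vehicle and 42.3, 40.8 and 41.6 CPM in BML-260, the steadiest of the family. Ctsa had a log2 fold change of 0.06 (SE 0.13, unadjusted p = 0.622), 0.10 without vehicle replicate 3, and -0.07 on the log2(TPM + 1) scale. The span of Ctsa overlaps that of Pltp by 1515 bases and that of Neurl2 by 725 bases.

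In CPM, some of the family were high in vehicle replicate 3 and others were not. That library was the highest of the 6 for 7 cathepsins, Ctsb, Ctsd, Ctsh, Ctsk, Ctsl, Ctss and Ctsz, and for 31.4% of all tested genes. Against the mean of the other 5 libraries, its CPM was higher by a ratio of 3.56 for Ctss, 2.65 for Ctsl, 2.00 for Ctsk, 1.71 for Ctsz and 1.46 for Ctsh. The ratio was 1.3 for Ctsd, 1.16 for Ctsb and 1.03 for Ctsa, and it was below 1 for Ctsf (0.839) and Ctsc (0.793). In TPM the same ratios were larger, from 1.11 for Ctsc and 1.19 for Ctsf to 5.10 for Ctss. All 10 were thus above 1 in TPM, and vehicle replicate 3 was highest for 9 of the 10 cathepsins, beside 61.4% of the 16800 genes in the TPM tables. Among the BML-260 libraries, Ctss and Ctsk varied most, with SDs of 0.65 and 0.50 in log2 CPM, and Ctsl had an SD of 0.12.

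**Figure D3:**
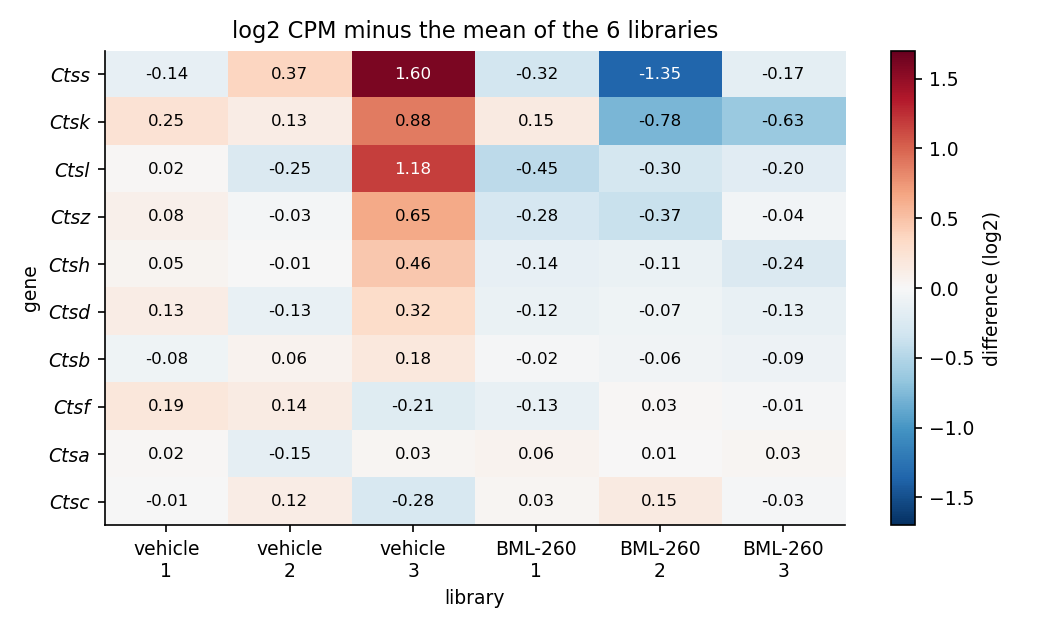
Log2 CPM of each cathepsin in each library minus the gene's mean over the 6 libraries. Vehicle replicate 3 is high for Ctss, Ctsl (1.18) and Ctsk (0.88) and low for Ctsf and Ctsc, and BML-260 replicate 2 is low for Ctss (-1.35) and Ctsk (-0.78) but not for Ctsl (-0.30).

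Ctsl and Ctss were then compared with each other per library. The ratio of Ctsl TPM to Ctss TPM was 4.30, 2.50 and 2.88 in vehicle and 3.56, 8.12 and 3.81 in BML-260. The groups overlapped, and the highest ratio came from BML-260 replicate 2, in which Ctss was lowest. The log2 ratio was higher by 0.61 with BML-260 (2.26 ± 0.66 against 1.65 ± 0.41, SD, n = 3 each, exact two-sided permutation test, p = 0.3). A difference between the responses of Ctsl and Ctss was thus not resolved. Without BML-260 replicate 2 the difference was 0.23.

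The summed macrophage TPM was lower in every BML-260 library (94.5 to 120 TPM) than in any vehicle library (160 to 656 TPM). A gene with unchanged TPM therefore has a positive difference when divided by this sum. A positive difference below thus does not show that a cathepsin rose. Set against the macrophage markers, the other cathepsins had positive differences between the groups, and that of Ctss was negative through BML-260 replicate 2 alone. Ctss TPM over the summed macrophage TPM was 0.0717, 0.10 and 0.0846 in vehicle and 0.0869, 0.0552 and 0.0986 in BML-260, and the log2 ratio differed by -0.12 between the groups. Only BML-260 replicate 2 (0.0552) lay below the vehicle range, and the other BML-260 libraries lay within it, so that the direction for Ctss was not stable. For Ctsl the ratio was 0.308, 0.251 and 0.243 in vehicle and 0.309, 0.448 and 0.375 in BML-260. All BML-260 libraries were above all vehicle libraries for Ctsl, although BML-260 replicate 1 and vehicle replicate 1 nearly met. The log2 ratio was higher by 0.49 (exact two-sided permutation test, p = 0.1, the smallest this design allows). Ctsl TPM itself was lower on average with BML-260 (40.3 against 83.6 TPM in vehicle). The higher ratio thus reflects a larger drop in the marker sum (107.7 against 327.2 TPM) than in Ctsl. The groups were not fully separated on other scales, with a p of 0.2 by the same exact permutation test on TPM + 1 (0.40) and on CPM scaled by TMM (0.47). The log2 ratio to the macrophage sum was higher with BML-260 for the other 8 cathepsins too, from 0.29 for Ctsk and 0.66 for Ctsz to 1.20 for Ctsa and 1.21 for Ctsc, and these were not tested. Most of these differences rested in part on vehicle replicate 3: without it they were 0.01 for Ctsk, 0.37 for Ctsz, 0.75 for Ctsa and 0.59 for Ctsc. Without that library Ctsl was 0.42 and Ctss was -0.12, where BML-260 replicate 2 still set the sign for Ctss. Of the macrophage markers, 13 of 16 were lower with BML-260 at the threshold, beside 4.86% of all tested genes. Without vehicle replicate 3, 11 were lower, beside 2.92% of all genes in that fit. Their median log2 fold changes were -1.35 and -0.71, respectively. Cd68 was an exception, with a log2 fold change of 0.00 (SE 0.49).

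**Figure D4:**
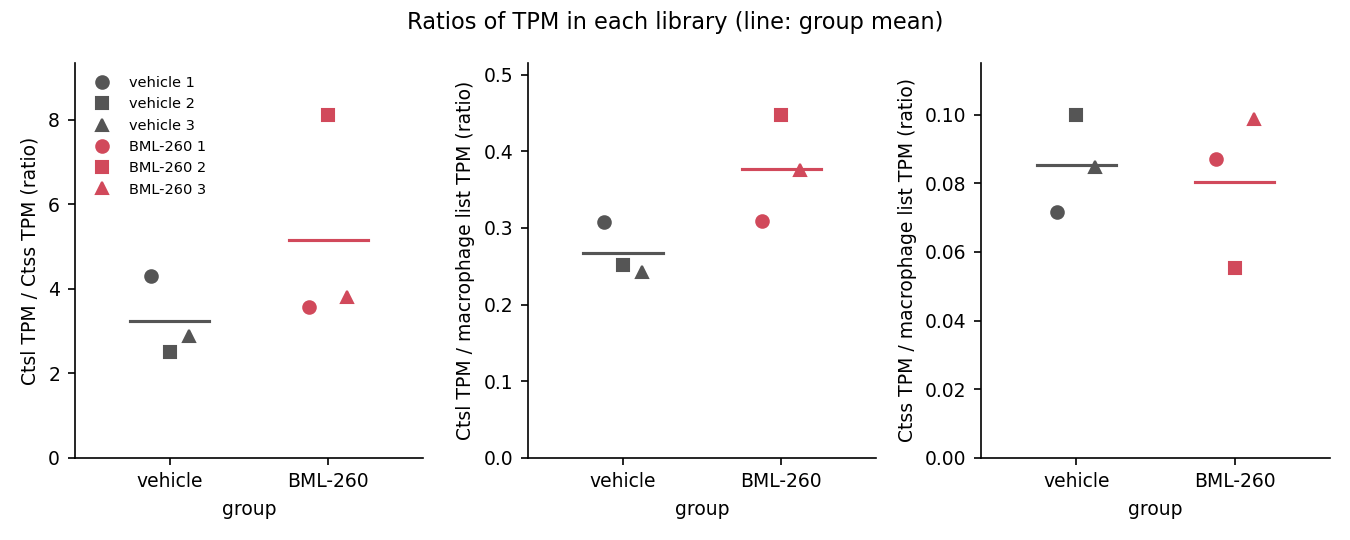
Ratio of Ctsl TPM to Ctss TPM (left), of Ctsl TPM to the summed macrophage marker TPM (middle) and of Ctss TPM to that sum (right) in each library, with a line at the group mean. BML-260 replicate 2 has the highest Ctsl to Ctss ratio (8.12), and the Ctss to macrophage ratio overlaps between the groups.

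The genes whose profile over the 6 libraries was nearest to Ctsl and to Ctss were different. Likeness was the root mean square difference of log2 CPM, each gene centred on its own mean, over 13582 genes with a curated name. Nearest to Ctsl were Slc43a1 (0.07), Ldlrad3 (0.10), the autophagy gene Gabarapl1 (0.10), the transcription factor Stat3 (0.11) and Ly6c2 (0.11). Nearest to Ctss were Cd84 (0.08), a receptor of leukocytes, the complement gene C1qc (0.19), the cholesterol synthesis gene Sqle (0.19), the potassium channel Kcnn4 (0.20) and Enc1 (0.21). All of these genes had their highest value in vehicle replicate 3. The nearest cathepsin to Ctsl was Ctsz (0.26), at rank 289, and the nearest to Ctss was Ctsk (0.50), at rank 395.

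Of 13 genes that sort and activate cathepsins or belong to the lysosomal membrane, 2 were lower at the threshold and 0 higher (median log2 fold change 0.04), beside the 4.86% of all tested genes that were lower. These were Lgmn, the legumain that processes cathepsin precursors, with 29.9, 28.9 and 46.9 CPM in vehicle and 27.8, 21.6 and 24.3 CPM in BML-260 (log2 fold change -0.52, SE 0.21), and the lysosomal membrane protein Lamp2 (-0.50, SE 0.21). Neither passed without vehicle replicate 3. Psap, which gives rise to the saposins and was the most abundant of this list, had a log2 fold change of 0.31 (unadjusted p = 0.149).

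Cathepsin inhibitors were lower in 4 of the 7 members tested and higher in 0 (median log2 fold change -0.45), and 3 were lower without vehicle replicate 3, beside 4.86% and 2.92% of all tested genes, respectively. Cst6, which inhibits Ctsl and legumain, was 33.6, 31.3 and 34.3 CPM in vehicle and 21.1, 15.2 and 17.7 CPM in BML-260. The groups of Cst6 were well apart, with a log2 fold change of -0.88 (SE 0.16, unadjusted p = 0.000431, adjusted p = 0.553 by edgeR and 0.00237 by DESeq2) and -0.85 without vehicle replicate 3. Serpinb6a, a serpin, had a log2 fold change of -0.45 (SE 0.18). Serpina3n reached 48.5 CPM in vehicle replicate 3 and 2.05 to 4.68 CPM in the other libraries, and Serpina3g was at most 0.31 CPM in every library. Both belong to a cluster of close copies between which reads can be split. Cst3, the secreted cystatin C and the most abundant inhibitor, had a log2 fold change of -0.05 (SE 0.20) and Cstb, the intracellular cystatin B, of -0.32 (SE 0.20), and neither passed.

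No lysosomal glycosidase passed the threshold (0 of 12 tested, median log2 fold change -0.12), including Gaa, the acid alpha-glucosidase and most abundant member (-0.03), and Neu1, the partner of Ctsa (0.02). Of 14 genes of the lysosomal proton pump, 3 were lower, Atp6v0e (-0.54), Atp6v1a (-0.41) and Atp6ap2 (-0.65), and 0 were so without vehicle replicate 3 at the same threshold, beside 4.86% and 2.92% of all tested genes, respectively. None of 4 transcription factors of the MiT/TFE family passed, with Tfeb at a log2 fold change of 0.40 (unadjusted p = 0.0558).

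Atrogenes other than Ctsl were lower in 9 of 16 members and higher in 0 (median log2 fold change -0.91), and 4 were lower without vehicle replicate 3 (median -0.21), beside 4.86% and 2.92% of all tested genes, respectively. Trim63 was 277, 213 and 887 CPM in vehicle and 199, 200 and 217 CPM in BML-260, with vehicle replicate 3 far above the rest, as for Ctsl. Its log2 fold change was -1.16 (SE 0.48), and -0.25 without vehicle replicate 3, where it did not pass. Gadd45a, by contrast, was 41.3, 106 and 109 CPM in vehicle and 16.5, 24.6 and 22.2 CPM in BML-260 (log2 fold change -2.02, SE 0.35, adjusted p = 0.553 by edgeR and 1.16e-05 by DESeq2, and -1.79 without vehicle replicate 3).

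The invariant chain and MHC class II genes, the substrate and partners of Ctss, were not high in vehicle replicate 3, which was the highest library for 1 of the 7 genes listed. Cd74, the invariant chain, was 44.5, 53.5 and 14.2 CPM in vehicle and 28.2, 17.6 and 24.9 CPM in BML-260. Vehicle replicate 3 was thus the lowest library for Cd74 and the highest for Ctss. None of the 7 genes of this list passed the threshold over all libraries (median log2 fold change -0.74), and 6 were lower without vehicle replicate 3 (median -1.09), where 2.92% of all tested genes were lower.

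**Figure D5:**
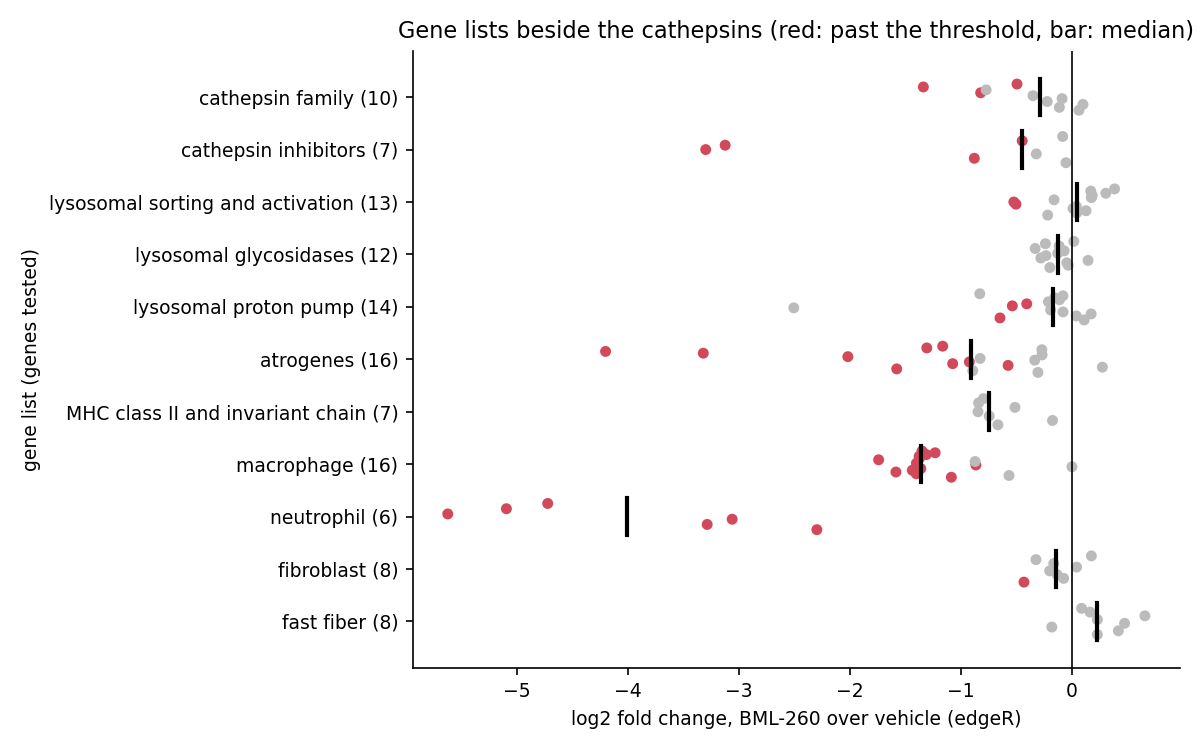
Log2 fold change, BML-260 over vehicle, of every tested gene in the cathepsin family and in lists of lysosomal, atrophy and cell type genes (red points past the threshold of a 1.3 fold change and an unadjusted p under 0.05, grey points not, black bars at the median). Among the lists shown, the cathepsin median (-0.29) lies between its nearest neighbours, the lysosomal proton pump (-0.17) and the cathepsin inhibitors (-0.45).

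Apart from Ctso, cathepsins outside the 10 were scarce. Ctso was the only other that was tested (8.32, 5.72 and 8.26 CPM in vehicle and 8.43, 9.43 and 7.13 CPM in BML-260, log2 fold change 0.16, SE 0.20). Ctse, found in immune and gastric cells, had 5, 0 and 74 counts in vehicle and 0 in each BML-260 library, and Ctsg, a neutrophil granule protease, had 0, 3 and 37 counts in vehicle and 0 in each BML-260 library. Ctsw, known from cytotoxic lymphocytes, had 5 counts in BML-260 replicate 1 and 0 in the others. The 9 rodent cathepsins known from placenta (Cts3, Cts6, Cts7, Cts8, Ctsj, Ctsm, Ctsq, Ctsr and Ctsll3) had 0 counts in every library, which allows up to 3 counts each, a limit that covers counting error only. Of neutrophil granule proteins, Mpo had 178, Prtn3 107 and Elane 35 counts in vehicle replicate 3, and at most 9 counts in any other library.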

How the data were processed

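Per the submitters' processing notes and the study's methods, the authors built stranded total RNA libraries, trimmed reads with Trimmomatic 0.38, mapped them to mm10 with HISAT2 2.1.0 and assembled transcripts with StringTie 2.1.3b (Bowtie2 2.3.4.1 is also named). The annotation, the strand setting and the handling of multi-mapped reads are not given in the sources used here. The authors deposited raw read counts per gene for the 6 libraries in 1 table, and TPM values in 1 table per library, which list 16800 genes, all with at least 1 count in every library.

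Counts were tested with edgeR 4.0.16 in R 4.3.3 (filterByExpr, TMM, quasi-likelihood test, Benjamini-Hochberg over 16188 genes). The SE was the log2 fold change divided by the square root of F. The kept genes held 99.9% of the counts. TPM served for levels of different genes, their sums and their ratios, also between libraries, and CPM scaled by TMM for each gene between libraries. Single values per library were compared with exact permutation tests. Scripts were tested on simulated data.

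The 10 cathepsins and all other lists were chosen with earlier results of these data known. From each list, the most abundant gene, genes past the threshold and partners of a cathepsin were eligible to be named. Cell type lists were macrophage, neutrophil, T and B lymphocyte, fibroblast (1 of 8 lower), endothelial (0 of 6), adipocyte (1 of 4), Schwann (0 of 5), erythroid (3 of 5), fast fiber (0 of 8) and slow fiber (2 of 6 lower), with none higher over all libraries, where 4.86% of all tested genes were lower. All 6 neutrophil markers tested were lower, and 5 without vehicle replicate 3, beside 4.86% and 2.92% of all tested genes. The list of 9 granule genes read beside Ctsc had 3 members tested and 0 past the threshold. Alternatives were RLE scaling, other filters, a replicate block, DESeq2 1.42.0, limma 3.58.1 (voom with quality weights, and trend on log2 TPM with pseudocounts of 1 and 0.1), and leaving out each library. Promoter windows and gene positions were from RefSeq (GRCm38.p6). Each mouse gave 1 library.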

Additional observations from a re-analysis of the deposited data

How the results depend on the processing

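Of 216 alternative values, 5 counts moved by more than 1.5 times and 4 values reversed. The other 207 kept their direction and their side of a p of 0.05 (adjusted for single genes, exact for ratios, which cannot reach it here) or stayed within 1.5 times (counts) or 0.205 (the family median). No cathepsin had an adjusted p under 0.05 in any fit. For single genes only a change of sign could thus count as a change, and the size of the effect was not judged. The 1.3-fold threshold was less steady: over 14 alternatives it was lost in 2 for Ctss, 4 for Ctsk and 6 for Ctsz and gained in 4 for Ctsl, and for no other cathepsin did it change. The reversals were Ctsa, with a log2 fold change of -0.07 (-0.069 with a TPM pseudocount of 1 and -0.071 with 0.1), and Ctsc, with -0.06 (-0.059 and -0.063). The TPM fits shifted the median of all genes to -0.09 and -0.14, and relative to it both genes were positive. The other 8 cathepsins were negative in all 14 alternatives. The number past the threshold was 1 with limma voom quality weights, 1 with limma on log2(TPM + 1), and 0 to 4 when single libraries were left out, with 1 without vehicle replicate 3 and 0 without BML-260 replicate 2. The number of cathepsins with non-overlapping groups was 4 to 6 when single libraries were left out, the 6 without vehicle replicate 2, while 18% to 32.7% of all tested genes were separated in either direction in these smaller comparisons (23.7% without vehicle replicate 2) and 12.1% with all libraries. Leaving out a library moved the log2 fold change of Ctss between -1.65 and -0.66 and that of Ctsl between -1.03 and -0.20. The lowest adjusted p of any cathepsin was 0.176 (Ctss, DESeq2), and the range for Ctss over the alternatives was 0.176 to 1.00. The genes past the threshold over the whole table numbered 931 in edgeR, 1416 without a filter on low counts, 446 on log2(TPM + 1), and 503 to 2223 when single libraries were left out.

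The replicate numbers were not shown to pair the mice: the correlations of deviations between same-numbered libraries were 0.162, 0.0541 and 0.11, although each library correlated best with its own number. With a replicate block, 3 cathepsins passed the threshold, the log2 fold change of Ctss was -1.23, and 1057 genes were past the threshold. With 3 mice a group and low members such as Ctsk at 123 counts in the shallowest library, smaller differences were not resolved.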
